A study of Mus musculus with 12 samples.

Results

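Integrins and laminins are the receptors and the ligands through which epithelial cells hold on to their basement membrane. They were followed here in NR-S1, a squamous cell carcinoma of the mouse that grows in the hind leg and spreads to the lung. The members were all 43 genes with spots on the arrays whose name begins with Itga, Itgb, Lama, Lamb or Lamc, out of 27962 named features, and they were covered by 91 of 41174 probes. They comprise 26 integrin chains, 11 laminin chains and 6 genes that share only the integrin name, such as binding proteins. The 26 integrin chains were divided into 9 leukocyte chains, 6 laminin-binding and epithelial chains, 4 collagen-binding chains and 7 others.

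There were 6 RNAs, 1 for each condition, all from male C3H/HeMsNrs mice carrying NR-S1. They came from the lung metastasis of unirradiated tumours, the lung metastasis after 8 Gy of gamma rays, the lung metastasis after 5 Gy of carbon ions, the primary tumour after 8 Gy of gamma rays, the primary tumour after 5 Gy of carbon ions and the unirradiated primary tumour. For the metastases of the gamma and carbon groups it was the hind leg tumour that had been irradiated. Primary tumours were taken 1 week, and lungs 2 weeks, after the leg tumour had reached 7.5 mm, in different mice, so site and time of sampling cannot be told apart between metastases and primaries. Laser microdissection was used to collect the tumour cells, and the labels do not give the number of mice behind an RNA. Each RNA was paired with another on 2 arrays with the dyes exchanged. Of the 12 arrays, 10 carried the unirradiated primary and 2 set the carbon-irradiated against the gamma-irradiated primary.

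An integrin is a pair of 1 alpha and 1 beta chain that spans the cell membrane, and the pair decides which ligand is bound. In stratified epithelium the alpha 6 beta 4 pair sits in hemidesmosomes and binds laminin-332, whose chains include those of Lama3 and Lamb3. The beta 2 integrins are made by leukocytes alone and hold them to the vessel wall, and the alpha 4 and beta 7 chains guide lymphocytes into tissues. The beta 6 and beta 8 chains pair with alpha v and release transforming growth factor beta from its latent form.

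Values are log2 ratios of 2 RNAs on the same array, given first for the array with the first-named RNA in Cy5 and then for the one with it in Cy3. An SD is over these 2 dye orientations and leaves out the spread between animals, since there was 1 RNA a group and no test could be made. A member counts as measured in a comparison where, on every array, its brightest probe stood well above background for 1 RNA or both. "Rose" and "fell" are used for members that were 2-fold or more apart in the same direction in both orientations, a log2 ratio of 1 or beyond. Of the 43 members, 34 were measured in all 9 comparisons and Itga10, Itgb2l and Lamc3 in none. In all, 15 members rose or fell at least once and 28 never did.

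The labelled cell type was checked first. Of 13 keratinocyte markers, 12 or 13 were well above background in every channel of each RNA. Cells other than tumour cells were seen too: 11 of 11 lung epithelial markers were above background in both channels of each of the 3 metastases. In the unirradiated primary 1 of 11 was above background in all 10 channels, and all 11 were in at least 1. In each irradiated primary, never on an array with a metastasis, 8 of 11 were above background in no channel. The unirradiated primary shared arrays with the metastases, and the part of this sharing in its signal was not tested. For Itga9 its normalised log2 signal was 9.38 to 9.48 on those arrays and 9.06 to 9.15 on arrays with an irradiated primary. The summed signal of the lung epithelial markers was 575881 to 1014895 in the 3 metastases, against 55004 to 100004 in the unirradiated primary. The summed signal of 10 pan-leukocyte markers, such as Ptprc, was 89936 to 96822 in the unirradiated metastasis, 66907 to 69322 in the gamma-group metastasis and 35483 to 35675 in the carbon-group metastasis, against 11868 to 14845 in the unirradiated primary. The summed signal of 13 skeletal muscle markers ran the other way, at 6362 to 9187 in the 3 metastases, 13622 to 15914 in the gamma-irradiated primary and 30263 to 33311 in the carbon-irradiated primary, against 60658 to 63296 in the unirradiated primary. These lists are given below beside the members they moved with.

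**Figure D1:**
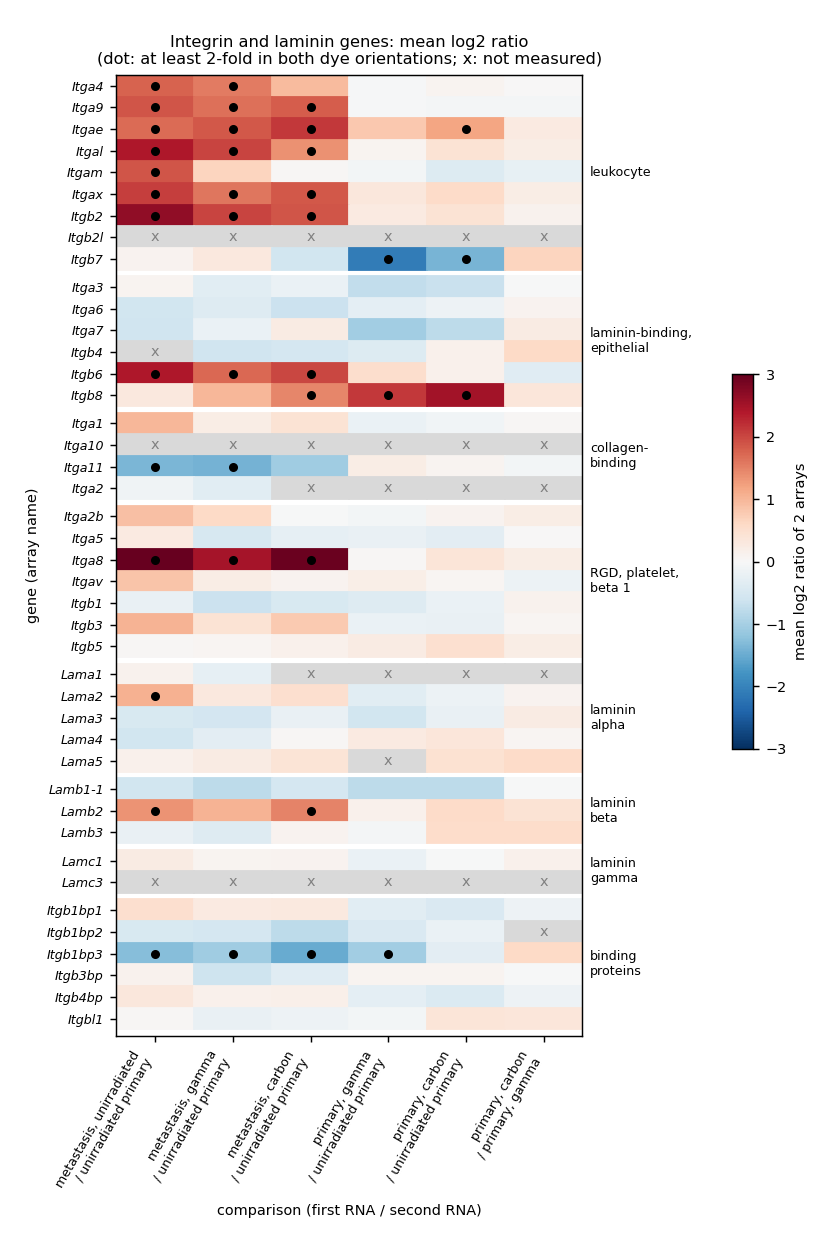
Mean log2 ratio (colour) of the members (rows, by group) in the 6 comparisons made on the arrays (columns, first RNA over second RNA). Dots mark members at least 2-fold apart in both dye orientations and crosses those not measured; the dots lie mostly on leukocyte integrins in the first 3 columns, while the laminin rows hold 3 dots in all.

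The first comparison set the unirradiated lung metastasis against the unirradiated primary, the question being how the tumour in the lung differs from the tumour in the leg. Of 39 members measured, 11 rose and 2 fell, beside 12.1% of all features that rose or fell, 10.4% rising and 1.68% falling. The median log2 ratio of the members was 0.24, against 0.05 over all features. Most of the rise was among leukocyte integrins, of which 7 of the 8 measured rose, with a median of 1.90.

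The 4 chains of the beta 2 family rose together. Itgb2, the common beta chain (CD18), was at 2.82 and 2.50, a mean of 2.66 ± 0.23 or 6.31-fold. Itgal, the alpha chain of LFA-1, which lymphocytes and myeloid cells use to bind ICAM proteins, was at 2.61 and 2.25, and its second probe averaged 2.12. Itgam, the alpha chain of Mac-1 on neutrophils and macrophages, was at 1.96 and 1.84, and its second probe averaged 1.10. Itgax, the CD11c chain of dendritic cells and alveolar macrophages, was at 2.03 and 2.13, while a dimmer probe gave 0.39. The ICAM ligands rose beside them: Icam1 by a mean of 2.87 and Icam2 by 2.65.

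The 3 other leukocyte chains that rose have partners outside the beta 2 family. Itga4, which binds VCAM-1, was at 1.67 and 1.89, but its 3 other measured probes gave 0.19, 0.30 and 0.72, and the mean of all its probes was 0.74, which is no call. These 3 probes were dim, with mean log2 intensities of 6.18 to 6.27. Itga10, measured in no comparison, had signals of 5.97 to 6.48. The ligand of Itga4, Vcam1, rose by 2.34. Itga9, found on neutrophils as well as on smooth muscle and some epithelia, was at 1.92 and 1.88. Itgae, which pairs with beta 7 on T cells and dendritic cells within epithelia and binds E-cadherin, was at 1.85 and 1.53, with 0.57 in a dimmer probe. Itgb7 itself was level at 0.12 and 0.10. The leukocyte chains that rose moved with the leukocyte lists, and Itgb7 did not: 10 of 10 pan-leukocyte markers rose (median 2.46, range 1.84 to 3.06), 8 of 8 neutrophil markers (median 3.63, range 1.61 to 5.70), 9 of 10 macrophage markers (median 1.68, range -0.18 to 5.38) and 9 of 12 T and NK cell markers (median 2.21, range -0.05 to 3.30). In RNA from dissected tissue more cells of a type and more RNA per cell cannot be told apart, and the part of these lists in the integrin values was not tested.

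**Figure D2:**
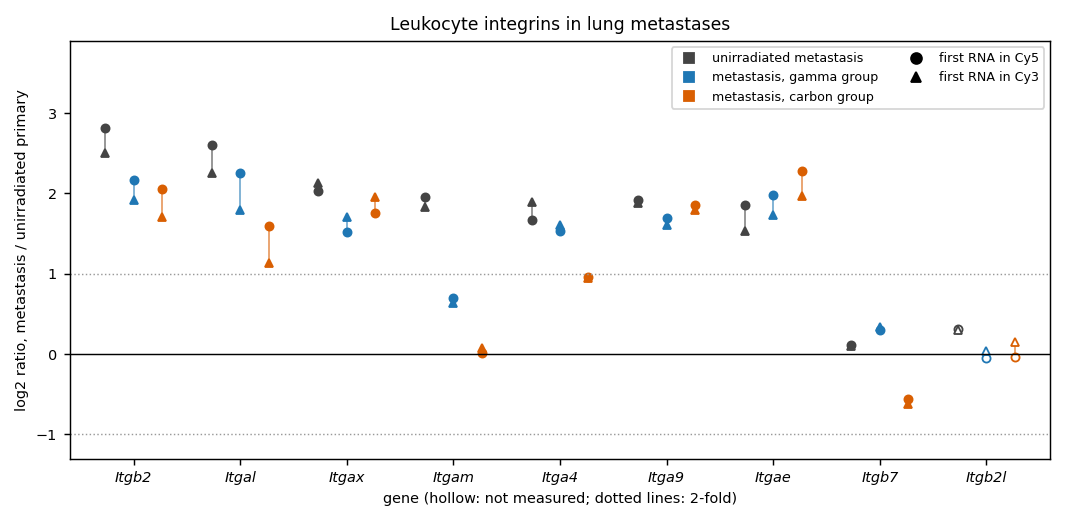
Log2 ratio over the unirradiated primary (vertical axis) of the 9 leukocyte integrins in the 3 metastases (colours), 1 point per array and dye orientation; hollow points were not measured. Itgb2, Itgal, Itgax, Itga9 and Itgae lie above 1 in every metastasis, Itgam only in the unirradiated one, and Itgb7 between -0.61 and 0.34.

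Among tissue integrins, Itga8 had the largest ratio of all members, at 3.17 and 2.90 (mean 3.04 ± 0.20, 8.21-fold). The alpha 8 chain pairs with beta 1 on mesenchymal cells such as lung myofibroblasts and pericytes. A second probe averaged 2.61, and the remaining one was not measured. Nephronectin, its ligand (Npnt), rose by a mean of 1.67. Itgb6, the epithelial chain of the alpha v beta 6 receptor, was at 2.56 and 2.29 (mean 2.43 ± 0.19), its other probes at 1.61 and 0.34. Itgb6 moved beside lung epithelial markers, of which 10 of 11 rose (median 4.43, range -0.26 to 7.63), and their part was not tested. The other epithelial receptors did not follow Itgb6. Itga6 was at -0.76 and -0.39 and Itga3 at -0.18 and 0.34. Itgb4 was not measured, since its brightest probe was flagged on 1 array; it gave -0.72 on the other, and a second bright probe averaged -0.95.

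Of the collagen receptors Itga11, the fibroblast receptor for fibrillar collagen, fell, at -1.28 and -1.44. Fibroblast markers did not fall with it: 6 of 10 rose and none fell (median 1.30, range -1.05 to 2.78), beside the rise of Itga8. Of 8 smooth muscle markers, 1 rose and 1 fell (median 0.07, range -2.52 to 2.64). The part of both lists was not tested. Itga1, which binds collagen IV, stood at 1.01 and 0.99, on the edge of 2-fold. The beta 3 chain Itgb3 was at 1.22 and 0.88, and its second probe gave 0.19. Itga2b, the platelet partner of beta 3, was at 0.85 and 0.96 and Itgav at 0.82 and 0.87. None of these 4 met the 2-fold rule in both orientations. The shared chain Itgb1 was at -0.40 and -0.04 in its brightest probe, which was printed 10 times, but a dim probe, designed to another transcript record, averaged -1.39. The same probe averaged -1.75 in the gamma-group and -1.59 in the carbon-group metastasis and -1.50 in the gamma-irradiated primary.

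Of 10 laminin chains measured, 2 rose and none fell in the unirradiated metastasis, beside 10.4% of all features rising and 1.68% falling. Lamb2, the beta 2 chain of vessel and lung basement membranes, was at 1.39 and 1.31 (mean 1.35 ± 0.05, 2.55-fold). Lama2, the chain of muscle and peripheral nerve laminins, was at 1.11 and 1.02, with 0.42 in a dimmer probe, and the mean of its probes (0.74) is no call. Of the epidermal chains of laminin-332, Lama3 was at -0.39 and -0.58 and Lamb3 at -0.44 and -0.02, within 2-fold. Of 14 other basement membrane genes measured, 1 rose and 1 fell, beside the same shares: Col4a3, an alveolar collagen IV chain, rose by 2.46 and the nidogen Nid2 fell by 1.42. Endothelial markers moved beside Lamb2, with 8 of 9 rising (median 1.92, range 0.01 to 4.23); their part was not tested.

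The last member that fell was Itgb1bp3, at -1.29 on both arrays. The gene is now named Nmrk2 and encodes a nicotinamide riboside kinase of skeletal muscle that was first described as a binding partner of beta 1 integrin. Its probe did not clear background in the metastasis, so its level was at least 2.44-fold lower there. Of 13 skeletal muscle markers 12 fell too (median -3.68, range -5.41 to -0.55). The other muscle members, Itgb1bp2 (melusin) and Itga7, the muscle laminin receptor, were at -0.39 and -0.57 and at -0.53 and -0.66. The part of muscle RNA in the primary was not tested.

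Integrins are linked to actin by talins, kindlins, tensins and the ILK, PINCH and parvin proteins. Of 21 such genes measured, 3 rose and none fell in the unirradiated metastasis: Tns1 by 2.70, the PINCH gene Lims2 by 2.65 and Parvg, the parvin of blood cells, by 1.56. Their median was 0.02, against 0.05 over all features, of which 10.4% rose and 1.68% fell. Of 16 integrin ligands, 5 rose and none fell, beside the same shares of all features. They were Icam1, Icam2, Vcam1, Npnt and Vwf, the last at 4.23. Of 5 hemidesmosome partners measured, such as Col17a1 and Dst, none rose or fell. With arrays centred on their median in place of loess, Itga11 (-1.42), Lamb2 (1.30) and Lama2 (1.07) no longer met the rule in both orientations.

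The metastases of the irradiated groups were set against the same unirradiated primary, so these comparisons share that RNA with the first. In the gamma-group metastasis 8 members rose and 2 fell of 40 measured, beside 9.9% of all features (8.8% rising and 1.1% falling). In the carbon-group metastasis 9 rose and 1 fell of 38, beside 9.21% (8.19% and 1.02%). Leukocyte integrins rose in 6 of 8 in the gamma group (median 1.63) and in 5 of 8 in the carbon group (median 1.59).

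The beta 2 chain Itgb2 was at 2.16 and 1.91 in the gamma-group and at 2.05 and 1.70 in the carbon-group metastasis. Itgal was at 2.26 and 1.80 in the gamma group and at 1.59 and 1.14 in the carbon group, and Itgax at 1.51 and 1.71 and at 1.75 and 1.96. The dimmer Itgax probe averaged 0.02 in the gamma group and 0.30 in the carbon group. Itgam, in contrast, was at 0.70 and 0.63 in the gamma group and at 0.01 and 0.07 in the carbon group, which is no rise in either. Itga4 was at 1.53 and 1.61 in the gamma group and, just below the 2-fold rule, at 0.96 and 0.95 in the carbon group. Of the other Itga4 probes, 2 averaged 0.17 and 0.10 in the gamma group. Itga9 rose in both, with means of 1.65 and 1.82, and so did Itgae, with 1.86 and 2.12, its dimmer probe giving 0.72 and 0.79. Neutrophil markers stood beside them at 6 of 8 rising in the gamma group (median 1.40, range 0.12 to 4.01) and 0 of 8 in the carbon group (median 0.30, range -0.79 to 0.89). Pan-leukocyte markers rose in 10 of 10 (median 2.09, range 1.26 to 2.67) and in 6 of 10 (median 1.43, range 0.66 to 1.85).

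Itga8 and Itgb6 rose in both irradiated groups as well. Itga8 was at 2.62 and 2.38 in the gamma group and at 3.15 and 2.77 in the carbon group, where the primary was above background on 1 of 2 arrays. Itgb6 was at 1.86 and 1.60 in the gamma group and at 2.10 and 1.90 in the carbon group, while its dimmest probe averaged -0.12 and 0.20. Fibroblast markers stood at 4 of 10 rising and 1 falling in the gamma group (median 0.59) and 2 rising and 1 falling in the carbon group (median 0.56). Smooth muscle markers stood at 1 of 8 rising and 1 falling in each, with medians of -0.25 and 0.001. Lung epithelial markers rose in 10 of 11 in each, with medians of 4.92 and 4.55, both above their 4.43 in the unirradiated metastasis. Itgb6 averaged 1.73 and 2.00, both below its 2.43 there, and the part of these markers was not tested. Lamb2 was at 1.11 and 0.99 in the gamma group, just outside 2-fold, and at 1.51 and 1.49 in the carbon group, and no other laminin chain rose or fell in either. Itga11 fell in the gamma group, at -1.31 and -1.51, and was at -0.86 and -1.26 in the carbon group. Itgb1bp3 fell in both, at -1.03 and -1.10 in the gamma group and at -1.44 and -1.58 in the carbon group, where its probe did not clear background and the level was at least 2.51-fold lower, beside 12 of 13 skeletal muscle markers in each (medians -3.76 and -3.57). Taking the mean of all probes of a gene ended the calls of Itga4 (0.69), Itgax (0.82) and Itgb6 (0.86) in the gamma group and of Itgal (1.10) and Itgb8 (0.81) in the carbon group. Centring arrays on their median left Itga9 (1.41), Itgax (1.33) and Itgb6 (1.53) in the gamma group and Itgal (1.24), Itgb2 (1.67) and Itgb8 (1.40) in the carbon group short of the rule in 1 orientation. Itgb1bp3 in the gamma group lost its call there too, as it did with scaling between arrays (-0.90).

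Itgb8 was the member that rose in the carbon-group metastasis but not in the unirradiated one. It was at 1.81 and 1.14 (mean 1.47 ± 0.47) in the carbon group and at 1.08 and 0.91 in the gamma group, against 0.58 and 0.05 in the unirradiated metastasis. The SD in the carbon group was the largest of any measured member there, and another probe averaged 0.30 in that group.

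The ligands and partners kept the pattern of the first comparison in part. Icam1 rose by 2.05 in the gamma-group and 2.40 in the carbon-group metastasis, Icam2 by 2.06 and 2.10, and Vcam1 by 1.39 and 1.22. Col4a3 rose by 1.89 and 1.96, Tns1 by 1.93 and 2.00, and Lims2 by 1.87 in each. Among ligands in the gamma group, 7 of 18 measured rose and 2 fell, beside 8.8% and 1.1% of all features. Vtn (vitronectin) rose there by 2.15, and Spp1 (osteopontin) and Tnc (tenascin C) fell by 1.62 and 1.13. In the carbon group 4 of 17 ligands rose and none fell, beside 8.19% and 1.02% of all features. The highest ligand value was 3.57 in the gamma group and 3.02 in the carbon group.

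**Figure D3:**
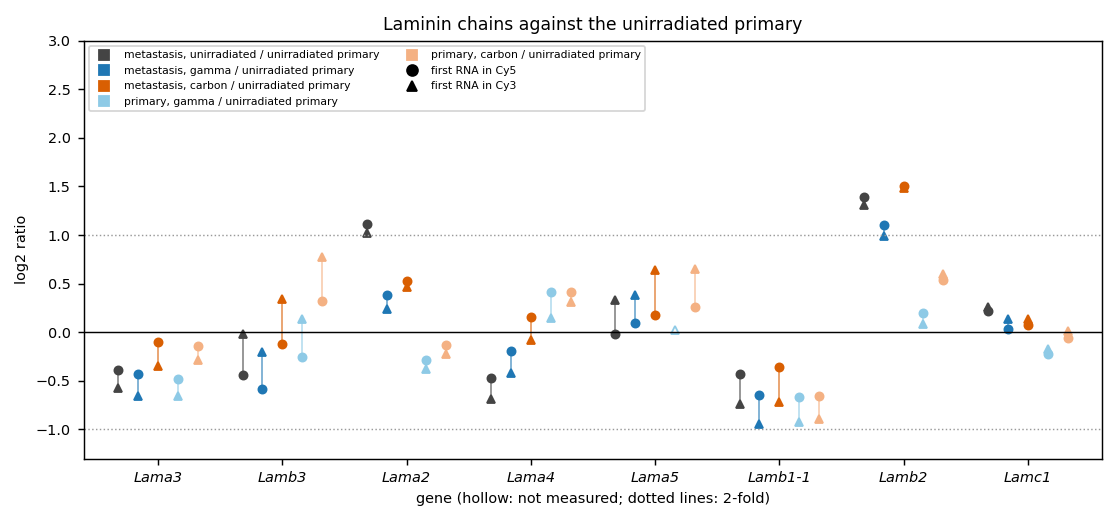
Log2 ratio over the unirradiated primary (vertical axis) of laminin chains in the 3 metastases and the 2 irradiated primaries (colours), 1 point per array and dye orientation; the hollow point was not measured. Lamb2 in the metastases and Lama2 in the unirradiated metastasis lie near or above 1, and all other points lie between -1 and 1.

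The metastases were also set against each other, through the primary RNA they share and between arrays of the same orientation, which asks what irradiation of the leg tumour left in the lung tumour. In the gamma-group against the unirradiated metastasis 1 of 37 members fell and none rose, beside 3.25% of all features (1.85% rising and 1.4% falling). In the carbon-group against the unirradiated metastasis 1 rose and 2 fell of 36, beside 4.22% (1.85% and 2.37%). Itgam fell in both, at -1.26 and -1.20 in the gamma group (2.35-fold lower) and at -1.94 and -1.76 in the carbon group (3.61-fold lower). Its second probe averaged -1.25 in the carbon group, and with the mean of both probes the gamma value falls just short of the 2-fold rule. Itgal fell in the carbon group, at -1.02 and -1.12, and was at -0.35 and -0.46 in the gamma group.

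Itgax and Itgae did not go with Itgam. Itgax was at -0.51 and -0.42 in the gamma group and at -0.27 and -0.18 in the carbon group, and Itgae at 0.13 and 0.21 and at 0.42 and 0.44. Itgb2 lay between them, at -0.66 and -0.58 and at -0.77 and -0.80. Itga4 and Itga9 did not meet the rule in either group. Normalised log2 signal of Itga4 was 8.49 to 8.62 in the unirradiated, 8.14 to 8.26 in the gamma-group and 7.64 to 7.67 in the carbon-group metastasis. That of Itga9, found on neutrophils among other cells, was 11.35 to 11.39, 11.07 and 11.23 to 11.26. Neutrophil markers fell in 7 of 8 in the gamma group (median -1.79, range -2.61 to -0.99) and in 8 of 8 in the carbon group (median -3.32, range -5.42 to -1.93). Their summed signal was 205323 to 343893 in the gamma-group and 45705 to 52463 in the carbon-group metastasis, against 404357 to 740118 in the unirradiated metastasis. Pan-leukocyte markers fell in 0 of 10 in the gamma group (median -0.49, range -0.91 to -0.17) and in 7 of 10 in the carbon group (median -1.11, range -1.51 to -0.88). Macrophage markers fell in 4 of 10 in the gamma group (median -0.90, range -1.25 to 0.20) and in 2 of 10 in the carbon group (median -0.93, range -1.04 to -0.39), with a summed signal of 25200 to 25262 in the gamma-group and 19743 to 20247 in the carbon-group metastasis, against 38932 to 39718 in the unirradiated metastasis. The part of these lists in the Itgam and Itgal values was not tested.

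Itgb8 rose in the carbon-group against the unirradiated metastasis, at 1.23 and 1.08 (mean 1.16 ± 0.10). It was at 0.50 and 0.85 in the gamma group. The call is lost when arrays are scaled to each other (0.97), when all probes are averaged (0.81) or with median centring (1.08). Between the carbon-group and the gamma-group metastasis none of 37 members rose or fell, beside 1.31% of all features (0.249% rising and 1.06% falling). The lowest was Itgb7, at -0.85 and -0.95, and the highest Lamb3, at 0.46 and 0.55, with Itgb8 at 0.73 and 0.23. Beside Itgb7, 4 of 6 B cell markers fell in the carbon-group against the gamma-group metastasis (median -1.83, range -3.75 to -0.51), and their summed signal was 1528 to 1797 in the carbon group against 11328 to 11479 in the gamma group. In the gamma-group against the unirradiated metastasis, where Itgb7 was at 0.18 and 0.24, 4 of 6 rose (median 1.69, range 0.47 to 2.36). The normalised log2 signal of Itgb7 was as high in the unirradiated primary (12.60 to 12.72) as in the unirradiated metastasis (12.74 to 12.75). B cell markers did not share this, with a summed signal of 450 to 623 in that primary and 2071 to 2338 in that metastasis. The part of B cell markers was not tested. The unirradiated and gamma-group metastases were on 1 slide and the carbon group was on another, so slide and group cannot be told apart for the carbon values.

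**Figure D4:**
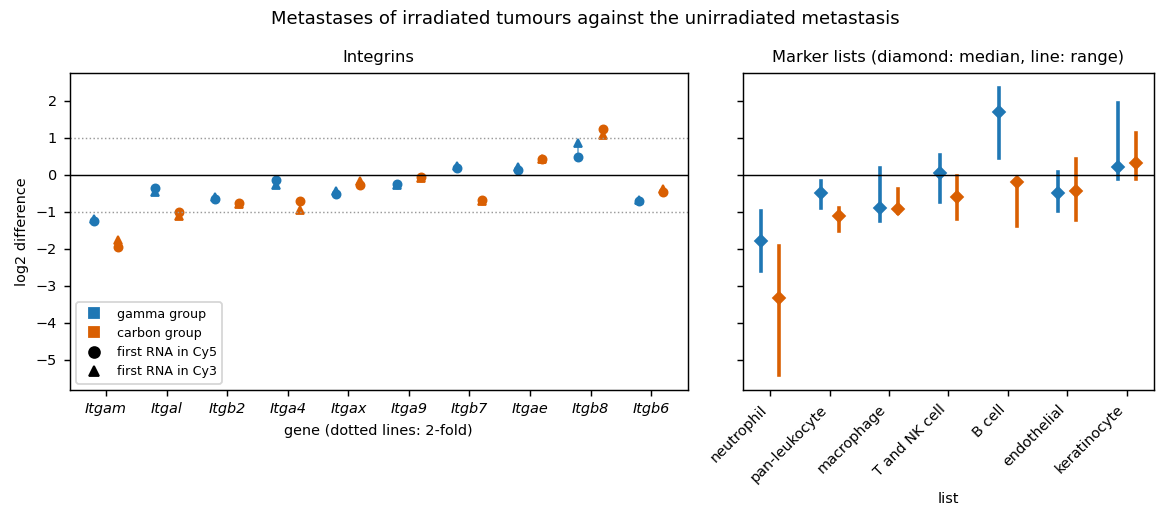
Left, log2 difference from the unirradiated metastasis (vertical axis) of 10 integrins in the gamma-group and carbon-group metastases, 1 point per dye orientation. Right, medians (diamonds) and ranges (lines) of 7 marker lists on the same axis: Itgam is the lowest of the integrins plotted (-1.23 and -1.85) and neutrophil markers are the lowest list (-1.79 and -3.32).

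Itgam and Itgax code for neighbours in the beta 2 family and lie on the same strand of chromosome 7, and of the pair Itgam fell in the metastases of both irradiated groups while Itgax stayed within 2-fold. The 250 bases before the start of each gene are printed to show how their promoters compare. They are from RefSeq for GRCm38.p6, chr7:128062390-128062639 (plus strand) for Itgam and chr7:128129300-128129549 (plus strand) for Itgax. Capitals mark the purine-rich core GAGGAA, known from sites of the myeloid factor PU.1, the related core GGAAGT of ETS factors and the GC box GGGCGG, each on either strand; a match on the minus strand appears as the reverse complement.

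Itgam: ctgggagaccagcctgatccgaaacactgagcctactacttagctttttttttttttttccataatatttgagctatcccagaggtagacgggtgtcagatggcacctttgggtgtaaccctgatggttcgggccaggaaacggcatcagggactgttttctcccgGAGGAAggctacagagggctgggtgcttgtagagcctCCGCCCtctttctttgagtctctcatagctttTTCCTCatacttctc
Itgax: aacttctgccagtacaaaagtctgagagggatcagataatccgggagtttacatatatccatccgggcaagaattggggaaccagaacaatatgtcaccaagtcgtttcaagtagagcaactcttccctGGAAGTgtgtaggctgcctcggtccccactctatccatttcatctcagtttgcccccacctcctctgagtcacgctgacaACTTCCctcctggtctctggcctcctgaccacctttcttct

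The Itgam stretch held 2 copies of the PU.1-type core and 1 GC box, and the Itgax stretch held 2 copies of the ETS core. The PU.1-type core was found in 23.3% of 32851 mouse promoters of this length and the ETS core in 19.7%. The GC box was found in 32.7%. One or the other of the PU.1-type and ETS cores, which can overlap by 4 letters, was found in 36.7%. These matches describe the letters only. Such cores are common, and nothing was measured here on binding.

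The second question was what each radiation did to the primary tumour itself 1 week later. In the gamma-irradiated primary 1 member rose and 2 fell of 37 measured, beside 3.48% of all features (2.22% rising and 1.26% falling). In the carbon-irradiated primary 2 rose and 1 fell of 38, beside 4.96% (3.89% and 1.07%). The median log2 ratio of the members was -0.09 after gamma rays and 0.02 after carbon ions, and that of all features was 0.02 in both. Both comparisons used the same unirradiated primary RNA.

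Itgb8 rose after both radiations. Its brightest probe was at 2.27 and 1.98 after gamma rays (mean 2.12 ± 0.20, 4.36-fold) and at 2.65 and 2.40 after carbon ions (mean 2.53 ± 0.17, 5.76-fold). Normalised log2 signal was 9.52 to 9.78 over the 4 channels of the gamma-irradiated and 9.87 to 10.15 over the 4 of the carbon-irradiated primary, against 7.35 to 7.91 over the 10 of the unirradiated primary. These channels repeat 1 RNA for each primary, so their ranges leave out the spread between animals. The dimmer probes showed smaller ratios: 0.63 and 0.66 after gamma rays and 0.47 and 0.82 after carbon ions, and the remaining probe was not measured. With the mean of all probes the values were 1.14 after gamma rays and 1.27 after carbon ions. The other chain that releases latent transforming growth factor beta, Itgb6, was at 0.62 and 0.43 after gamma rays and at 0.31 and 0.01 after carbon ions, and their partner Itgav was at 0.16 and 0.23 and at 0.05 and 0.08.

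Itgb7 fell after both radiations. It was at -2.03 and -2.17 after gamma rays (mean -2.10 ± 0.10, 4.28-fold lower) and at -1.43 and -1.36 after carbon ions (mean -1.40 ± 0.05, 2.63-fold lower). Its signal was 10.55 to 10.66 in the gamma-irradiated and 11.22 to 11.35 in the carbon-irradiated primary, against 12.60 to 12.72 in the unirradiated primary, again over repeats of 1 RNA each. Its gene has 1 probe on the array. Without the loess step, that is with arrays centred on their median, the carbon value kept its mean (-1.42) but 1 orientation fell short of 2-fold, and the same held for Itgae (1.26) after carbon ions and Itgb1bp3 (-1.03) after gamma rays. Of 10 pan-leukocyte markers 0 rose or fell after either radiation, with medians of 0.04 after gamma rays and 0.11 after carbon ions. Of 6 neutrophil markers, 0 fell after gamma rays (median -0.40) and 4 after carbon ions (median -1.39, range -1.66 to -0.97). The summed signal of all 8 on the array was 28901 to 33673 after gamma rays and 10739 to 12960 after carbon ions. In the unirradiated primary it was 8348 to 34735 over 10 channels, a range that takes in both. The part of these markers was not tested.

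Itgae, which shares its receptor with beta 7, went the other way. It rose after carbon ions, at 1.32 and 1.04, and was at 1.02 and 0.58 after gamma rays. A second probe averaged 0.56 and 0.24, and the mean of both probes after carbon ions (0.87) is no call. T and NK cell markers rose beside it, in 8 of 11 after carbon ions (median 1.47, range 0.00 to 2.43) and in 4 of 10 after gamma rays (median 1.03, range 0.06 to 1.60); their summed signal was 4020 to 4277 after carbon ions and 2988 to 3130 after gamma rays, against 1795 to 2119 in the unirradiated primary. Their part was not tested. The other leukocyte chains measured, Itga4, Itga9, Itgal, Itgam, Itgax and Itgb2, were within 2-fold in both irradiated primaries, with means between -0.41 and 0.58. Itgam was the lowest of these, at -0.46 and -0.36 after carbon ions, beside the neutrophil markers given above, of which 4 of 6 fell.

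**Figure D5:**
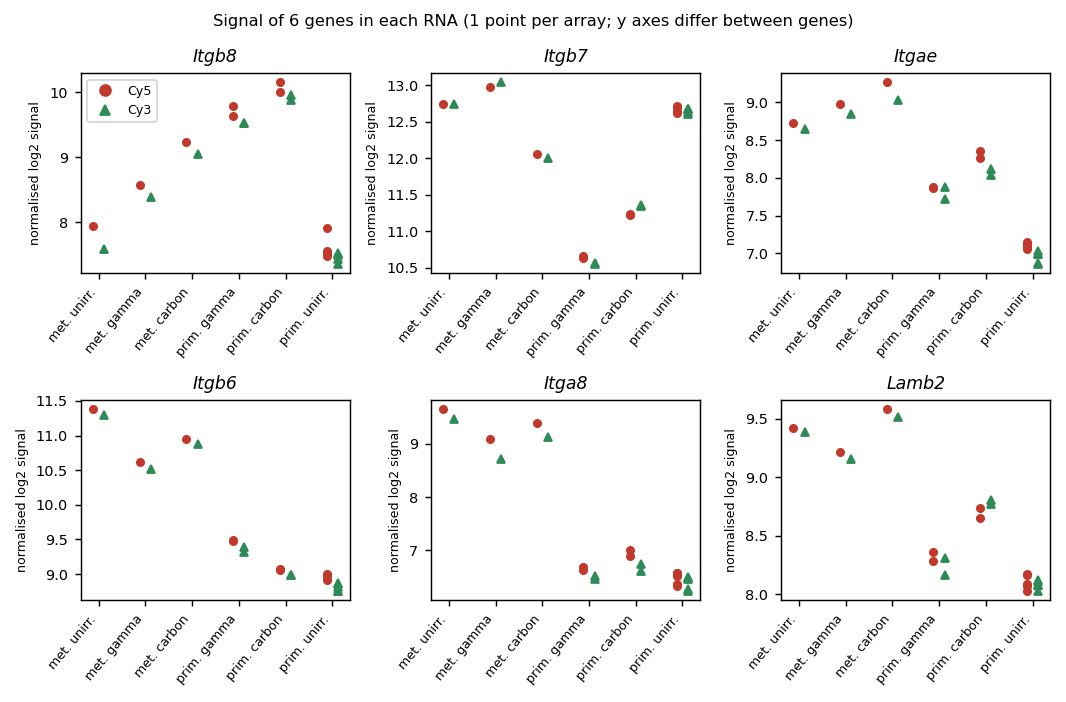
Normalised log2 signal (vertical axis, its range differs by gene) of Itgb8, Itgb7, Itgae, Itgb6, Itga8 and Lamb2 in each of the 6 RNAs, 1 point per array, red circles for Cy5 and green triangles for Cy3. Both irradiated primaries lie above the unirradiated primary for Itgb8 and below it for Itgb7, and the 3 metastases lie above it for Itgb6, Itga8 and Lamb2.

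The stretches before the starts of Itgb8 and Itgb7 are printed as the 2 promoters whose genes changed in both irradiated primaries. They lie at chr12:119238277-119238526 (minus strand) and chr15:102231936-102232185 (minus strand) of GRCm38.p6 and come from RefSeq. No base is in capitals, since neither stretch holds any of the 3 cores on either strand.

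Itgb8: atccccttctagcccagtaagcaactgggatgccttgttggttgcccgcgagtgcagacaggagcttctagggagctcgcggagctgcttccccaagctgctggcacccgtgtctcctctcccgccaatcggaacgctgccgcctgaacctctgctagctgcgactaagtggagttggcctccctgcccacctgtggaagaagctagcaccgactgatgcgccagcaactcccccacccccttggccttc
Itgb7: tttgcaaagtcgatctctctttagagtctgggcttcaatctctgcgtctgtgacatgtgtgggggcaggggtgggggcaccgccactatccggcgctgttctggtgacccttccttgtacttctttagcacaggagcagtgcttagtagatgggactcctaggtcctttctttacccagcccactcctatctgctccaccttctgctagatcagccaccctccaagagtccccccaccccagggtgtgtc

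The Itgb8 stretch held 12 CG pairs and 62.4% G and C, and the Itgb7 stretch 5 CG pairs and 56% G and C. The missing cores say only that these letters do not occur in these 250 bases.

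Of the muscle members, 1 fell after gamma rays and none after carbon ions. Itgb1bp3 was at -1.05 on both arrays after gamma rays and at -0.20 and -0.42 after carbon ions. In the gamma-irradiated primary its probe stood well above background on 1 of the 2 arrays, so the size of this fall is uncertain. Without the offset of the background correction its gamma value was -1.85. Itga7 was at -0.98 and -1.10 after gamma rays, just outside the rule, and at -0.80 and -0.77 after carbon ions. Itgb1bp2 was at -0.46 on both arrays after gamma rays and at -0.09 and -0.32 after carbon ions. Skeletal muscle markers fell in 12 of 13 after gamma rays (median -2.17, range -2.90 to -0.53) and in 5 of 13 after carbon ions (median -0.86, range -2.34 to -0.40). The part of muscle RNA was not tested.

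None of the laminin chains and none of the hemidesmosome integrins met the rule in an irradiated primary. Lamb1, listed on the array under its former name Lamb1-1, was at -0.67 and -0.92 after gamma rays and at -0.66 and -0.90 after carbon ions. Of the laminin-332 chains, Lama3 was at -0.48 and -0.66 after gamma rays and at -0.14 and -0.28 after carbon ions, and Lamb3 at -0.26 and 0.14 and at 0.33 and 0.78. Itga3, a laminin receptor of keratinocytes, was at -0.92 and -0.56 and at -0.92 and -0.43, with its second bright probe at -0.85 and -0.80 on average. Itga6 and Itgb4 averaged -0.29 and -0.42 after gamma rays and -0.15 and 0.14 after carbon ions. Lama5 was not measured after gamma rays, since its spot was flagged on 1 array, and averaged 0.46 after carbon ions.

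Genes around these receptors moved in the carbon-irradiated primary in particular cases. The hemidesmosome collagen Col17a1 and Dst, the plakin that ties it to keratin, each rose by 1.24 after carbon ions. They were 2 of 6 partners measured, beside 3.89% of all features rising. After gamma rays 0 of 6 rose, the highest at 0.625. Of 12 other basement membrane genes, Col4a5 rose by 1.13 and Ntn4 (netrin 4, which binds laminin) by 1.11 after carbon ions. None rose or fell after gamma rays, the highest at 0.73. Set carbon against gamma on the same arrays, none of the 6 hemidesmosome partners or 12 basement membrane genes measured met the rule. Their highest values were 0.70 and 0.54. Of 15 ligands, Mfge8, which binds alpha v integrins, rose by 1.48 after carbon ions. The ligand Spp1 fell by 1.83 after gamma rays and by 1.29 after carbon ions. Among linkers to actin, Tns3 rose by 1.32 and by 1.85 and the others, 20 and 19 in number, did not meet the rule.

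On the 2 arrays that carried both irradiated primaries, none of the 37 members measured rose or fell in the carbon-irradiated against the gamma-irradiated primary, beside 1.04% of all features (0.879% rising and 0.159% falling). The highest was Itgb7, at 0.65 and 0.69 (1.59-fold), and the lowest Itgb6, at -0.26 and -0.48. Itgb1bp3 was at 0.68 and 0.53, with its probe not above background in the gamma-irradiated primary on either array, Itgb4 at 0.77 and 0.40, Lama5 at 0.42 and 0.71 and Lamb3 at 0.37 and 0.72. The ratio of Itgb8 was 0.48 and 0.24. Skeletal muscle markers rose in 9 of 12 (median 1.28, range -0.999 to 2.02), beside Itgb1bp3, and Vcam1 was the only one of 15 ligands to rise, by 1.15. With 1 RNA on each side, ratios within 2-fold do not show that both radiations act alike.

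Across the 9 comparisons, 4 members met the rule 4 times (Itgae, Itgal, Itgb1bp3 and Itgb8), and Lama2 once. Of the 25 members that were measured but never met it, mean log2 ratios ran from -1.04 for Itga7 to 1.05 for Itgb3. Among these were 8 of the 11 laminin chains, Itga3, Itga6, Itga7 and Itgb4 of the laminin receptors, Itga1 and Itga2 of the collagen receptors, and Itga2b, Itga5, Itgav, Itgb1, Itgb3 and Itgb5. The 5 other genes with an integrin name, Itgb1bp1 and Itgb1bp2, Itgb3bp, Itgb4bp (now Eif6, a ribosome factor) and Itgbl1, also stayed there. Of these Itga5, the fibronectin receptor, averaged between -0.50 and 0.27 over the 5 comparisons with the unirradiated primary, and Itgb5, a vitronectin receptor, between 0.03 and 0.47.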

How the data were processed

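The deposited scanner files hold, per the file headers, the mean intensity and median local background of each spot in Cy5 and Cy3, read with Agilent Feature Extraction 9.1.3.1 from arrays of design 014868. The deposited log10 ratio, Cy5 over Cy3, is of processed signals, and the authors' value table equals it within 0.005, with column medians of 0. Each array had 45018 spots, of which 0 were saturated; in each channel 53.8% to 68.8% stood well above background.

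Intensities were corrected with normexp (offset 50) and loess in limma 3.58.1 (R 4.3.3), tested on simulated data. The 16 to 58 flagged spots per array were left out. Spots were averaged per probe, and the brightest probe stood for a gene; 26 members had several. Ratios were turned by the dyes in the labels, and per-channel signals came from quantile normalisation of intensities. RefSeq held the accession of 57 of the 91 probes, the symbol of 32 and a former symbol of 2.

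In each comparison every member past the 2-fold rule is named (the 12 largest where there are more, and others as partners or paralogues), with some of the genes called in the ligand, partner and linker lists. Cell type marker lists are given as counts, medians, ranges or summed signals, without values of single genes. Other probes of a member called are given where they differed by over 1 on the log2 scale, and for some others. Those that differed so for Itga4, Itgax, Itgae, Itgb6 and Itgb8 were dim, with mean log2 intensities of 6.18 to 6.87. The part of dimness in their ratios, and in calls lost on averaging probes, was not tested. Of the members counted, 1 is not reported here. Members and lists were chosen with earlier results of these data known. Each group had 1 RNA, so no p-value was computed. Alternatives were other background corrections, normalisations, filters and probe rules.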

Additional observations from a re-analysis of the deposited data

Results flagged for a closer look

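In 3 cases a member that was past 2-fold in the metastasis or the primary after a radiation, each against its unirradiated counterpart, went the opposite way at the other site. For Itgb7, the log2 ratio in the gamma group was 0.21 in the metastasis and -2.10 in the primary, a difference of 2.31. For Itgb1bp3 the values were 0.22 in the metastasis and -1.05 in the primary, a difference of 1.27. For Itgal, the carbon group was at -1.07 in the metastasis and 0.43 in the primary, a difference of -1.50. In each case both dye orientations of the metastasis lay on the other side of 0 from both of the primary, and the differences were not tested, since each group was 1 RNA. Only the leg tumour had been irradiated, and site and time of sampling cannot be told apart in these differences. The Itgb1bp3 probe did not clear background in the unirradiated metastasis and did so on 1 of 2 arrays in the gamma-irradiated primary, so the size of its difference is uncertain. Itga7, never past 2-fold in both orientations, also had opposite signs: the carbon group was at 0.84 in the metastasis and -0.78 in the primary, and the gamma group at 0.38 and -1.04.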

How the results depend on the processing

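The counts of members that rose or fell were recomputed under each alternative. The 43 named ratios that met the 2-fold rule were followed under 6 of these, and none changed sign; ratios within 2-fold were not followed. Of the 43, 43 still met it with an offset of 0, under the processed log ratio of the scanner software or under the authors' table; 40 did so after scaling between arrays, 33 for the mean of all probes and 29 where median centring replaced loess. In the gamma-irradiated primary the count of 3 became 5 (1 higher and 4 lower) with an offset of 0 and 6 with the processed log ratio and with the authors' table. In the carbon-irradiated primary the count of 3 became 1 with median centring, and in the gamma-group metastasis 10 became 6. Between the carbon-irradiated and gamma-irradiated primaries 0 became 1 with an offset of 0, with the processed log ratio and with the authors' table. For the gamma-group against the unirradiated metastasis 1 became 2 with an offset of 0, 4 under the processed log ratio or the authors' table (1 higher and 3 lower), and 0 for the averaged probes. For the carbon-group against the unirradiated metastasis 3 became 7, and for the carbon-group against the gamma-group metastasis 0 became 1, with the processed log ratio and with the authors' table. Leukocyte integrins alone, recounted as a choice made after seeing the data, numbered 7, 6 and 5 in the unirradiated, gamma-group and carbon-group metastases, and 7, 4 and 3 with median centring. The causes of these changes were not tested. Median centring moved the median of all features to -0.10 in the gamma-group metastasis and to -0.105 in the carbon-group metastasis, against 0.06 in both with loess, and the processed log ratio moved it to -0.11 in the unirradiated metastasis, against 0.05. In the carbon-group metastasis the split of 9 higher and 1 lower became 10 and 3 with an offset of 0. The median of the members in the gamma-irradiated primary, -0.09, was -0.20 with an offset of 0 and -0.26 with the processed log ratio, and in the unirradiated metastasis 0.24 became 0.10 with median centring. No paired analysis was possible because each group had 1 RNA, and the slide could not serve as a block, since a dye swap was never split between slides.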
